A study of Mus musculus with 4 samples.

Results

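Transcripts of 10 genes for matrix-binding and epithelial integrins were followed through 4 single-cell RNA libraries of mouse gingiva: 6 alpha subunits (Itga1, Itga2, Itga3, Itga5, Itga6 and Itgav) and 4 beta subunits (Itgb3, Itgb4, Itgb6 and Itgb8). They were chosen by symbol, all 10 had a row in every matrix, and they are 10 of the 31253 genes listed. The libraries are cKO PD, cHet PD, cKO control and cHet control, 1 library each. All 4 came from mice whose genotype is labelled Itga9-Lyz2-cKO or Itga9-Lyz2-cHet, names read here as conditional loss of Itga9, on both alleles or on a single one, driven from Lyz2, a gene of myeloid cells. Mice without a conditional allele were not analysed here, and the labels give no further detail of the alleles. PD is experimental periodontitis, in which the maxillary second molar was tied with silk and given Porphyromonas gingivalis, with the gingiva taken after 14 days; the treatment of the others is labelled Control. Age, sex and the number of animals behind a library are not given in the sources used here, so a difference between libraries has no replicate check, and no test was made.

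Integrins are receptors made of an alpha and a beta chain that span the cell membrane and bind matrix outside the cell to the cytoskeleton inside it. In stratified epithelium the alpha 6 and beta 4 chains form the hemidesmosome receptor that holds basal keratinocytes to laminin, while the alpha 2 and alpha 3 chains pair with beta 1 to bind collagen and laminin. The alpha v chain pairs with several beta chains, of which beta 6 is epithelial and beta 8 is found in several tissues, and both of these pairs are known to release active TGF-beta from its latent form; alpha 5 with beta 1 is the main fibronectin receptor, alpha v with beta 3 binds vitronectin and other matrix proteins in vessels, and alpha 1 with beta 1 binds collagen.

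After removal of barcodes with over 20% mitochondrial UMIs or under 200 genes, 6595 cells of cKO PD, 8967 of cHet PD, 7673 of cKO control and 7915 of cHet control were kept. Barcodes over the mitochondrial cap were 1.12% in cKO PD and 1.10% in cHet PD, against 17.8% in cKO control and 9.72% in cHet control. This loss thus goes with treatment. UMIs (unique molecular identifiers, each standing for 1 captured transcript) had a median per kept cell of 2520 and 2967 in the PD libraries, against 5390 and 5598 in the control libraries, in the order cKO then cHet. The lowest barcode held 500 UMIs in both PD files and 1501 in both control files, so this floor goes with treatment; with a common floor of 1501 UMIs, all 34 differences between libraries that are called below stayed past 2-fold. Any pair of libraries shared 65 to 116 barcodes. Cell classes were set by marker gates that used no integrin, and a class name means cells that passed its gate alone. Keratinocytes made up 60.2% and 67.6% of kept cells in cKO PD and cHet PD, against 79.0% and 88.8% in cKO control and cHet control. Itga9 itself, measured in mononuclear phagocytes by 3′ tags that need not lie in the deleted part, was at 18.8 CPM (8 UMIs) in cKO PD, 100 CPM in cHet PD, 43.6 CPM (18 UMIs) in cKO control and 122 CPM in cHet control.

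Levels are CPM, the counts of a gene for each 1000000 counts, from UMIs summed over the cells of 1 class in 1 library, with an exact Poisson 95% interval in parentheses that covers counting error only. UMIs were counted from the 3′ end of transcripts, so the scale is not per length and is read here within a gene. A pair of libraries was said to differ where the levels were at least 2-fold apart with 10 CPM added to both, at least 50 UMIs stood in 1 of them and both held at least 40 cells; this is a rule of size, not a test, and a gene may pass the minimum only through the library in which it is high. Ratios are given without the added 10 CPM, with an exact binomial 95% interval of counting error.

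Most integrin transcripts of the gingiva sat in the epithelium. Itga6 had 88843 UMIs in kept cells, Itgav 18191, Itgb4 16858, Itga1 4973, Itga3 4430, Itga2 4208, Itgb6 3483, Itga5 2024, Itgb8 1059 and Itgb3 584. Basal keratinocytes, gated on Krt5, Krt14 and Krt15 with few spinous transcripts, were 26.7% of kept cells and held 49.3% of the Itga6 UMIs, 53.7% of Itgb4, 53.4% of Itga3 and 56.6% of Itga2. For Itgav and Itgb6 the basal share was only 27.8% and 28.7%, near the share of cells. Blood endothelium, 3.63% of kept cells, held 44.2% of the Itgb3 UMIs, 29.2% of Itga1 and 18.9% of Itga5. Mural cells (pericytes and smooth muscle) were 1.24% of kept cells and held 17.1% of Itga1.

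**Figure D1:**
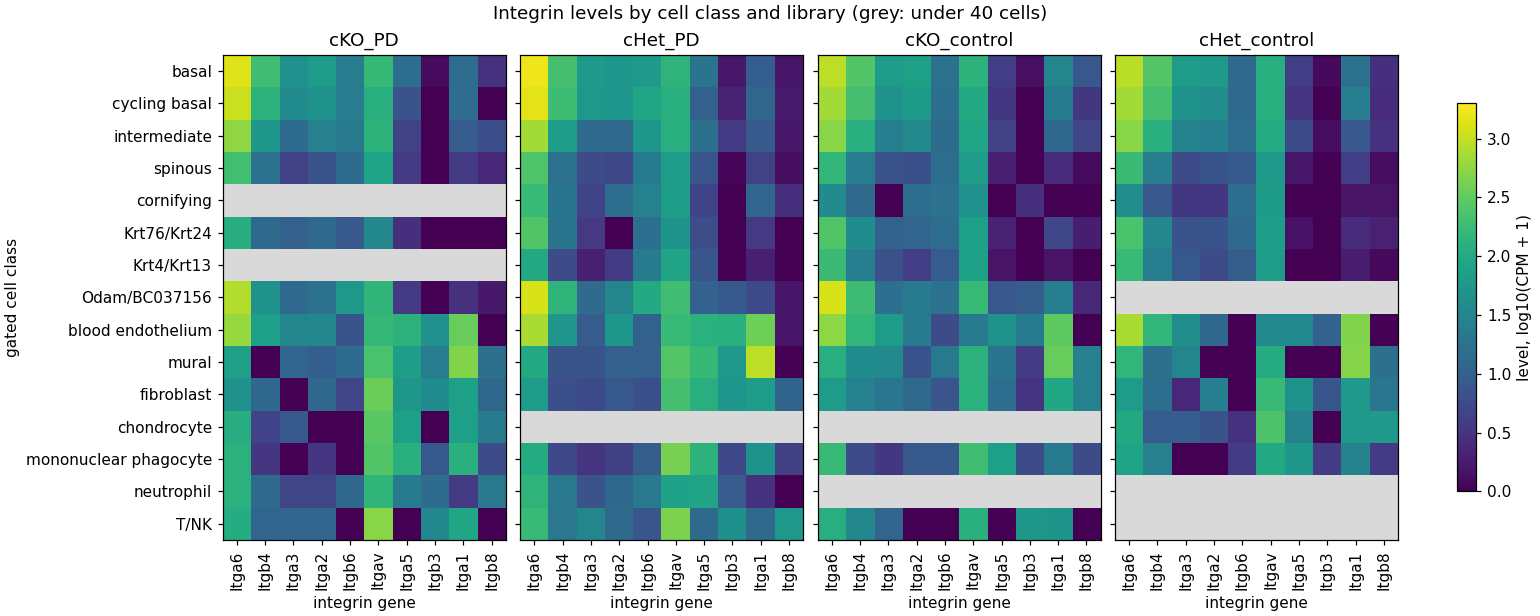
Level of the 10 integrin genes (columns) in 15 gated cell classes (rows) of each library (panels), as colour on a log10(CPM + 1) scale; grey marks classes under 40 cells. Itga6 and Itgb4 are brightest in basal, cycling basal and Odam/BC037156 keratinocytes and in endothelium, Itga1 in mural cells and endothelium, and Itgav is spread over most classes.

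Itga6, the alpha chain of the hemidesmosome receptor, was a gene of the basal layer, of keratinocytes gated on Odam and BC037156 (given below) and, less so, of vessels. In basal keratinocytes it reached 1379 CPM (1343 to 1415) in cKO PD, 1634 CPM (1608 to 1660) in cHet PD, 937 CPM (920 to 955) in cKO control and 921 CPM (905 to 938) in cHet control. Both PD libraries were above both controls, and the control libraries were close to each other. The PD to control ratio in basal cells was 1.47 (1.42 to 1.52) in cKO and 1.77 (1.73 to 1.82) in cHet, both short of the 2-fold size. At least 1 Itga6 UMI was found in 87.8%, 91.6%, 89.8% and 91.3% of basal cells of cKO PD, cHet PD, cKO control and cHet control. With cells thinned to 1000 UMIs, the shares were 69.5% and 74.1% in the PD libraries against 56.7% and 56.3% in the controls. PD thus again lay above control. Basal cells under 1000 UMIs were left out of these shares, 89 in cKO PD, 240 in cHet PD and 0 in each control. As a level for cells that are not epithelial, 13.6% of the neutrophils of cKO PD and 11.2% of those of cHet PD held an Itga6 UMI.

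In cycling basal keratinocytes, the dividing cells of the basal layer, Itga6 was at 1083 CPM (1019 to 1149) in cKO PD, 1468 CPM (1423 to 1513) in cHet PD, 698 CPM (673 to 724) in cKO control and 685 CPM (659 to 713) in cHet control. The cHet PD to cHet control ratio, 2.14 (2.04 to 2.25), met the size rule, and the cKO ratio, 1.55, did not; thinned to 1000 UMIs, the cHet difference was 0.93 on the log2 scale, below 2-fold. Cornifying keratinocytes, the outermost living layer, had 168 CPM (136 to 206) in cHet PD, 38.0 CPM in cKO control and 40.1 CPM in cHet control, and too few cells in cKO PD. Their ratio of 4.19 (3.08 to 5.72) in cHet was past 2-fold, beside 5.9% of all genes of the class, and was 0.57 on the log2 scale after thinning.

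Itgb4, the partner chain of Itga6, stood the other way round. Its basal level was 192 CPM (178 to 206) in cKO PD, 210 CPM (201 to 220) in cHet PD, 250.5 CPM (241 to 260) in cKO control and 259 CPM (250 to 267) in cHet control. Both PD libraries lay below both controls, by ratios of 0.765 (0.705 to 0.828) in cKO and 0.812 (0.768 to 0.859) in cHet, less than the 2-fold size. For each Itga6 UMI, basal cells held 0.139 (0.129 to 0.150) Itgb4 UMIs in cKO PD, 0.129 (0.123 to 0.135) in cHet PD, 0.267 (0.256 to 0.279) in cKO control and 0.281 (0.270 to 0.292) in cHet control. The same split by treatment was present in the layers above. The ratio was 0.123, 0.129, 0.299 and 0.311 in cycling basal cells, 0.0975, 0.0971, 0.228 and 0.243 in intermediate cells, and 0.0805, 0.0640, 0.160 and 0.140 in spinous cells, in the library order used above. Since each is a ratio within 1 library and class, library depth cancels in it.

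Cell by cell, Itgb4 was detected only somewhat more often in cells with an Itga6 UMI than in cells without one. In basal cells thinned to 1000 UMIs, Itgb4 was detected in 18.1%, 17.8%, 25.0% and 25.3% of cells with an Itga6 UMI, and in 14.7%, 14.5%, 18.3% and 18.4% of cells without one, in cKO PD, cHet PD, cKO control and cHet control. At this depth Itgb4 was detected in only 17.1%, 17.0%, 22.1% and 22.3% of all basal cells in the same order, which limits what co-detection can show.

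Itga3 and Itga2, the laminin and collagen receptor chains that pair with beta 1, were also basal genes and changed little in that layer. Itga3 in basal cells was at 45.2 CPM (38.9 to 52.3) in cKO PD, 59.9 CPM (55.1 to 65.1) in cHet PD, 65.6 CPM (60.9 to 70.4) in cKO control and 65.7 CPM (61.4 to 70.2) in cHet control. Only the cKO PD library stood below the rest, at 0.690 of its control. Itga2 was at 63.0 CPM (55.5 to 71.3), 53.9 CPM (49.3 to 58.8), 73.7 CPM (68.8 to 78.8) and 58.7 CPM (54.6 to 62.9), in the same order, a spread that met the size rule for no pair. Itgb1, their partner and no member of the set, was at 598 CPM in cHet PD and 312 CPM in cHet control in basal cells, a ratio of 1.91, short of the size rule.

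Levels dropped with differentiation in the same way in each library, though not for each gene. The basal over spinous ratio was between 5.18 and 6.85 for Itga6, 10.3 and 13.3 for Itgb4, 10.9 and 13.8 for Itga3, and 9.32 and 13.4 for Itga2. It was far smaller for Itgav, 1.94 to 2.11, and for Itgb6, 1.07 to 2.68. Along bins of the share of differentiation keratins among all keratins counted, Itga6 in the lowest bin was at 1535, 1770, 923 and 933 CPM and in the highest at 139, 192, 119 and 132 CPM, in the same library order, so that the PD libraries were highest at both ends. Itgb4 started at 218, 245, 256 and 276 CPM and ended at 9.30, 11.2, 13.4 and 12.9 CPM, lowest in the PD libraries at both ends.

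**Figure D2:**
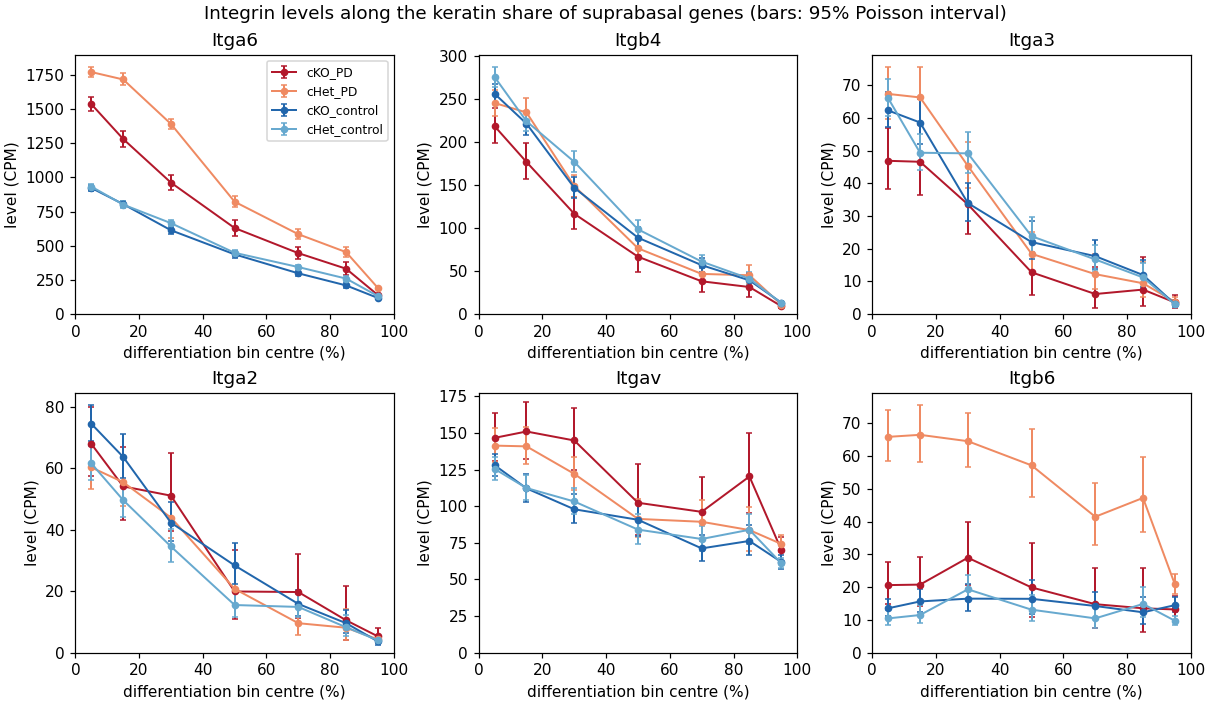
Level (CPM, vertical axes) of 6 integrin genes in keratinocytes by the share of differentiation keratins in a cell's keratin UMIs (%, horizontal axes, bin centres), 1 line per library, bars showing 95% Poisson intervals. Itga6, Itgb4, Itga3 and Itga2 fall steeply from basal to differentiated cells, Itgav falls by about its basal over spinous ratio of 1.94 to 2.11, and Itgb6 in cHet PD lies above the other libraries over most of the range.

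Itgb6, the epithelial partner of the alpha v chain, was 1 of the members that differed in basal keratinocytes, and did so between the PD libraries too. It stood at 23.7 CPM (19.2 to 29.0) in cKO PD, 59.0 CPM (54.1 to 64.1) in cHet PD, 15.8 CPM (13.6 to 18.3) in cKO control and 12.9 CPM (11.1 to 15) in cHet control. The cHet PD library was above the other three, and cKO PD lay between it and the controls. Of 8 members with enough UMIs in basal cells of the cHet pair, 2 were higher in PD, Itgb6 and Itga5, and 0 lower; over all genes 6.01% were higher and 4.57% lower by the same rule. The cHet PD to cHet control ratio of Itgb6 was 4.56 (3.84 to 5.44) and the cKO PD to cKO control ratio 1.502 (1.16 to 1.94). Between the PD libraries the cKO PD to cHet PD ratio was 0.402 (0.321 to 0.501), past 2-fold, where 1.04% of all genes were called lower in basal cells. These ratios share libraries and are not independent of each other. The share of basal cells with an Itgb6 UMI was 5.64%, 16.9%, 6.20% and 5.25% in cKO PD, cHet PD, cKO control and cHet control.

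Itgb6 was also highest in cHet PD in the neighbouring layers. Cycling basal cells had 24.1 CPM (24 UMIs) in cKO PD, 87.4 CPM (76.7 to 99.1) in cHet PD, 14.9 CPM in cKO control and 12.9 CPM in cHet control, with a cHet PD to control ratio of 6.77 (4.94 to 9.46) and a cKO PD to cHet PD ratio of 0.276 (0.174 to 0.421), where 1.63% of all genes were lower. Itgb6 and Itga6 were the 2 of 7 members higher in cHet PD there, against 8.37% of all genes. Intermediate cells had 20.3, 55.0, 13.8 and 14.05 CPM, with ratios of 3.92 (2.85 to 5.47) for cHet PD to cHet control and 0.369 (0.228 to 0.572) for cKO PD to cHet PD, both under 2-fold after thinning, at 0.97 and -0.74 on the log2 scale. In this layer Itgb6 was the 1 of 6 members higher in cHet PD, where 7.37% of all genes were, and it was lower in cKO PD than in cHet PD beside 3.34% of all genes. In spinous cells the levels were 13.5, 22.0, 14.7 and 7.55 CPM, and no pair met the size rule.

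The basal class was held by different clusters in the libraries, and Itgb6 differed between those clusters. A cluster led by H19, Pxdc1, Plau and Sox9 made up 30.5% of the basal cells of cHet PD (666 cells) and 74 cells of cKO PD; within it Itgb6 was at 94.0 CPM (62.3 to 137) in cKO PD and 88.9 CPM (79.9 to 98.7) in cHet PD, so the PD libraries did not differ there beyond counting error. In a cluster led by H19 and Col17a1, which held 30.4% and 27.2% of the basal cells of cKO PD and cHet PD, the levels were 14.9 and 29.4 CPM. The basal cells of the controls lay mostly in other clusters, of which the one led by Dst, Krt5 and Krt15 held 19.5% in cKO control and 44.0% in cHet control. Basal cells with at least 2 of the transcripts Serpinb2, Aqp3, Tmprss11g and Phlda1, markers of inflamed keratinocytes, were 22.1% of the class in cKO PD, 51.1% in cHet PD, 22.5% in cKO control and 18.0% in cHet control. Their Itgb6 level was 2.01-fold (1.31 to 3.06) that of the other basal cells in cKO PD, 2.12-fold (1.73 to 2.62) in cHet PD, 1.17-fold (0.844 to 1.61) in cKO control and 1.44-fold (1.02 to 2.01) in cHet control. For Itga6 the same ratios were 0.977, 1.06, 0.926 and 0.978. How much of the difference between libraries goes with these cells was not tested.

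**Figure D3:**
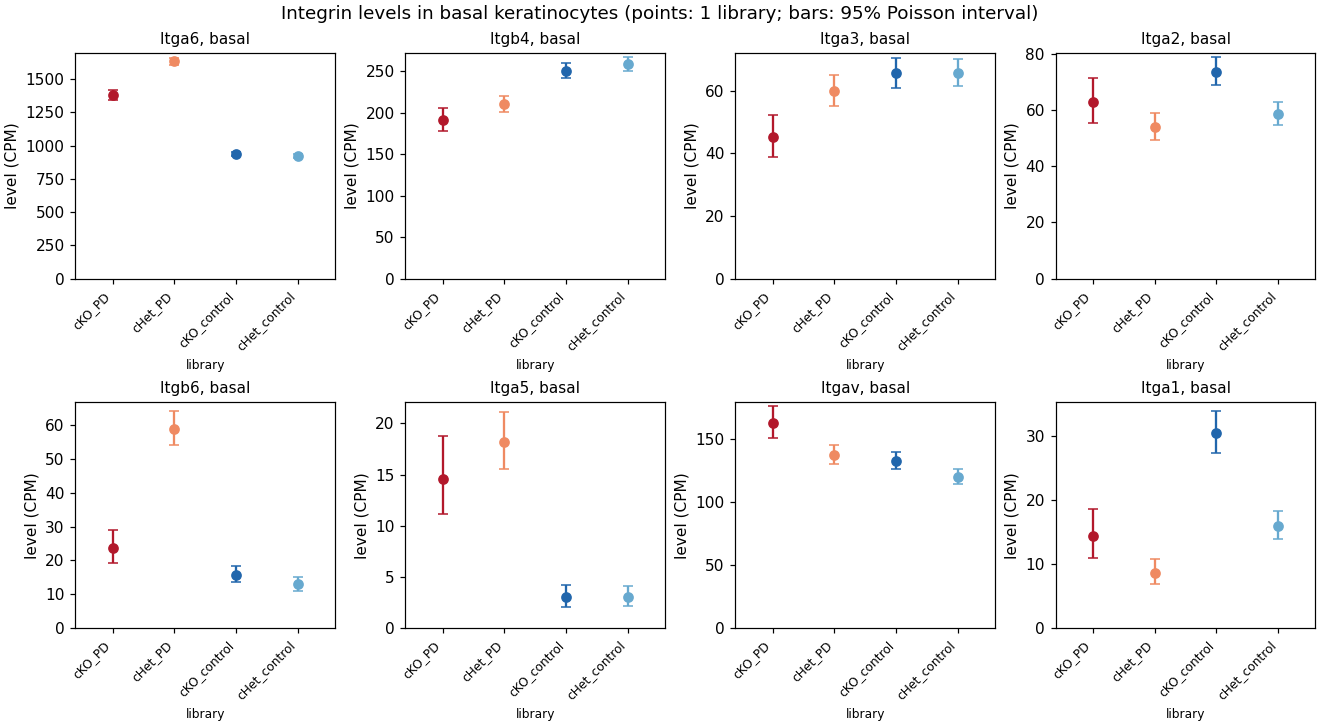
Level (CPM, vertical axes) of 8 integrin genes in basal keratinocytes of each library (horizontal axis), bars showing 95% Poisson intervals. Itga6 and Itga5 are higher and Itgb4 is lower in both PD libraries than in both controls, while Itgb6 is highest in cHet PD.

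Start-site windows of 300 bases from RefSeq (GRCm38.p6), 250 before and 50 after the start, were matched for 7 of the 10 genes; those of Itga6, Itgb4 and Itgb3 were not used here. The upstream sequences are printed for the 3 members that differed most widely by treatment, Itgb6 in epithelium and Itga5 and Itgav in vessels and phagocytes, 5′ to 3′ on the strand of the gene. Capitals mark the GC box GGGCGG on either strand, a motif of many promoters that 35.7% of all 32851 windows hold. The Itgb6 window (first of 2 starts, chr2:60722554-60722853, minus strand) had no match and a GC content of 50.3%, the Itga5 window (chr15:103366742-103367041, minus strand) had 2 and 58.7%, and the Itgav window (chr2:83724147-83724446, plus strand) had 1 and 67.3%, beside a median GC content of 52.7% over all windows. None of the 3 held the AP-1 type motif TGANTCA, found in 7.81% of windows, or the TATA box TATAAA, found in 13.6%.
Itgb6: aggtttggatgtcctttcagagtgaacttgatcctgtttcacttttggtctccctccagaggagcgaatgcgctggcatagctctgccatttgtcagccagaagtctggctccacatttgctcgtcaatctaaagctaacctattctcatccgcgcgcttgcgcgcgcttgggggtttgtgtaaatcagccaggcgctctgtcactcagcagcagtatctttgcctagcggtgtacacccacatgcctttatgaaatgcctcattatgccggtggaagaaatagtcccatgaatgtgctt
Itga5: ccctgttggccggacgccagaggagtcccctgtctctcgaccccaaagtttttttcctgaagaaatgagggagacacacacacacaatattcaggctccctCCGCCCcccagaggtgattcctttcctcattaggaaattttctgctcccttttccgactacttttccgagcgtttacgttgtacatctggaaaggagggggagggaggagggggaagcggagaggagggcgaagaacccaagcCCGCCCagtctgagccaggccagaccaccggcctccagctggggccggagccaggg
Itgav: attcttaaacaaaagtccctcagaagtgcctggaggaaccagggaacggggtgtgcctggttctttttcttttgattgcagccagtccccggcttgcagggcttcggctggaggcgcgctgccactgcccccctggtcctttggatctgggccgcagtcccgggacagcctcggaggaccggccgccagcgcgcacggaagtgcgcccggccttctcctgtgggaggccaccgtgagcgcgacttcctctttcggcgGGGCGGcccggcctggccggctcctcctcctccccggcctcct

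Keratinocytes gated on Odam and BC037156, of which Odam is a gene of the junctional epithelium that seals gum to tooth, were many in PD (542 cells in cKO PD and 422 in cHet PD) and few in controls (87 in cKO control and 33 in cHet control, too few to use). Here 4 members could be compared in the cKO pair, of which 1 was higher and 1 lower in PD; 4.25% of all genes were higher and 4.32% lower. Itgb6 was the higher, at 55.9 CPM (44.7 to 69.1) in cKO PD and 104 CPM (89.7 to 120) in cHet PD against 16.6 CPM (12 UMIs, 8.58 to 29.0) in cKO control. The cKO PD to cKO control ratio was 3.37 (1.83 to 6.77). Itgb4 was the lower, at 47.4 CPM (37.1 to 59.6) in cKO PD, 143 CPM (126 to 162) in cHet PD and 183 CPM (153 to 217) in cKO control. Its cKO PD level was 0.259 (0.192 to 0.348) of cKO control and 0.330 (0.251 to 0.430) of cHet PD, both past 2-fold, the second beside 2.23% of all genes; thinned to 1000 UMIs, the 3 differences of this class were 0.62, -0.97 and -0.91 on the log2 scale. Itga6 was at 827 CPM (782 to 874) in cKO PD, 1257 CPM (1206 to 1310) in cHet PD and 1277 CPM (1196 to 1362) in cKO control, short of the size rule. Of 7 genes of hemidesmosomes and their laminin, among them Col17a1, Plec and Dst, 4 were lower and 0 higher in cKO PD than in cKO control, with a median log2 ratio of -1.01 beside 0.10 over all genes of the class.

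Among the keratinocytes gated on Krt76 and Krt24, keratins of hard palate epithelium, Itga6 was at 113 CPM (86.4 to 145) in cKO PD, 255 CPM (208 to 309) in cHet PD, 253 CPM (240 to 266) in cKO control and 230 CPM (221 to 240) in cHet control. The cKO PD library was the low one, at 0.447 (0.340 to 0.578) of cKO control and 0.444 (0.318 to 0.615) of cHet PD, both past 2-fold, the second beside 2.84% of all genes. Against cHet PD this rests on 61 and 102 UMIs and was -0.98 on the log2 scale with TMM scaling and -0.60 after thinning; with classes taken from clusters instead of gates it was -1.98, and the difference from cKO control -2.52. Itgb4 had 12.97 CPM (7 UMIs) in cKO PD, 17.5 CPM (7 UMIs) in cHet PD, 39.4 CPM (34.4 to 44.9) in cKO control and 33.1 CPM (29.4 to 37.0) in cHet control, and only the cKO pair, with a ratio of 0.329 (0.131 to 0.690), met the size rule; thinned to 1000 UMIs, it was -0.79 on the log2 scale. These were the 2 of 6 members lower in cKO PD, where 8.06% of all genes were lower in this class. In the Krt4 and Krt13 keratinocytes, lining-mucosa cells of which cKO PD held too few, Itgb4 had 4.66 CPM (5 UMIs) in cHet PD, 25.5 CPM in cKO control and 24.5 CPM in cHet control, a cHet PD to control ratio of 0.190 (0.0606 to 0.456), where 6.89% of all genes were lower.

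Other genes of the same adhesion site were also compared in basal cells. Of the 7 hemidesmosome and laminin genes, 2 were lower in cHet PD than in cHet control, where 4.57% of all basal genes were. Their median log2 ratio was -0.85 beside -0.06 over all genes. Dst, which links the receptor to keratin filaments, was at 519 CPM in cHet PD and 2528 CPM in cHet control, and Plec, its fellow linker, at 63.9 and 151 CPM. In the cKO pair, in which 0 of 9 members met the rule beside 2.99% of all basal genes higher and 2.8% lower, 0 were higher and 2 lower, again Dst (877 CPM in cKO PD, 2766 CPM in cKO control) and Plec (50.2 and 146 CPM), with a median of -0.64 beside 0.00. Of 18 adaptor genes that tie integrins to actin, 16 could be compared in each pair; in cHet 1 was higher (Vcl, 206 CPM in PD and 70.8 CPM in control) and 1 lower (Tns1, 25.0 and 91.4 CPM), shares near the 6.01% higher and 4.57% lower of all basal genes, and in cKO 0 were higher and 3 lower (Zyx, Tns1 and Tns4). Of 11 genes of latent TGF-beta, 7 could be compared in cHet, with Ltbp1 higher (151 CPM in PD, 66.3 CPM in control) and Ltbp4 lower (59.2 and 131 CPM). Beside them stand the same 6.01% higher and 4.57% lower of all basal genes.

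Itga5, the fibronectin receptor chain, was the member that was higher in PD in the widest range of cells of the cHet pair. In basal keratinocytes it was low, at 14.6 CPM (11.1 to 18.8) in cKO PD, 18.2 CPM (15.5 to 21.1) in cHet PD, 3.0 CPM (2.08 to 4.19) in cKO control and 3.06 CPM (2.20 to 4.16) in cHet control. Both PD libraries were clear of both controls. The cHet PD to control ratio was 5.93 (4.19 to 8.55) and met the size rule; the cKO ratio was 4.86 (3.14 to 7.65) but, at 0.92 on the log2 scale with 10 CPM added, did not. The 8 markers of fibroblasts, which express Itga5, summed to 528 and 232 CPM in basal cells of cKO PD and cHet PD against 266 and 332.5 CPM in cKO control and cHet control, with 3 of them at 0 in cKO PD and none at 0 elsewhere; their part in the Itga5 level was not tested.

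In blood endothelium, 7 members could be compared in the cHet pair: 4 were higher in PD (Itga2, Itga5, Itgav and Itgb3) and 1 lower (Itgb4), beside 10.3% higher and 5.12% lower over all genes. In the cKO pair 2 of 6 were higher (Itga5 and Itgav) and 0 lower, beside 6.25% and 7.77%. Itgav was at 157 CPM (131 to 187) in cKO PD, 171 CPM (152 to 192) in cHet PD, 21.0 CPM (13.1 to 31.8) in cKO control and 35.5 CPM (21.1 to 56.2) in cHet control. The PD libraries lay far above the controls in both genotypes, with ratios of 7.50 (4.74 to 12.4) in cKO and 4.81 (2.99 to 8.23) in cHet. Itga5 showed the same pattern, with 129.5 CPM (106 to 157), 127 CPM (110 to 145), 47.7 CPM (35.4 to 62.8) and 35.5 CPM (21.1 to 56.2) in the same order and ratios of 2.72 (1.92 to 3.89) in cKO and 3.57 (2.21 to 6.14) in cHet.

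Itgb3, the vascular partner of the alpha v chain, differed between the PD libraries as well. Endothelial cells had 45.3 CPM (31.7 to 62.7) in cKO PD, 117 CPM (101 to 134) in cHet PD, 21.9 CPM (13.9 to 32.9) in cKO control and 9.87 CPM (5 UMIs, 3.21 to 23.0) in cHet control. The cHet PD library was highest, at 11.8-fold (4.98 to 36.8) its control, and cKO PD was at 0.388 (0.264 to 0.556) of cHet PD, where 2.21% of all endothelial genes were lower; thinned to 1000 UMIs, the last difference was -0.49 on the log2 scale. Itga2, a collagen receptor chain, had 32.7, 54.1, 22.9 and 11.8 CPM (6 UMIs), and its cHet PD to control ratio of 4.57 (2.02 to 12.8) met the rule. Itgb4 was lower in PD, with 71.7 CPM (54.3 to 92.9) in cKO PD, 51.1 CPM (40.8 to 63.2) in cHet PD, 148 CPM (125 to 173) in cKO control and 146 CPM (115 to 183) in cHet control. Only the cHet ratio of 0.350 (0.253 to 0.485) met the size rule, the cKO ratio of 0.485 (0.352 to 0.661) being -0.95 on the log2 scale with 10 CPM added. Itga6, also the laminin receptor chain of vessels, did not follow Itgb4, at 623 CPM (569 to 680), 760 CPM (719 to 803), 546 CPM (502 to 593) and 766 CPM (692 to 846). Itga3 was lower in both PD libraries than in both controls. It had 31.4 CPM (25 UMIs) in cKO PD, 7.82 CPM (13 UMIs) in cHet PD, 63.9 CPM (67 UMIs) in cKO control and 41.5 CPM (21 UMIs) in cHet control. No pair met the size rule for Itga3 there.

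Endothelial clusters differed in share between libraries, so the values were also taken within them. A cluster led by Selp, Col4a1, Col15a1 and Plvap, genes of venous and sprouting vessels, held 54.2% of endothelial cells in cKO PD, 29.9% in cHet PD, 67.4% in cKO control and 58.1% in cHet control. Within it, Itgav was at 199, 257, 20.2 and 42.8 CPM and Itgb3 at 53.4, 203, 22.9 and 13.2 CPM (4 UMIs in the last). Itga5 was at 136, 150, 52.5 and 49.4 CPM, and Itgb4 at 95.4, 70.0, 147 and 168 CPM. The order of PD against control was thus the same inside this cluster as in the whole class for these 4 genes. In a cluster led by Fabp4, Lpl, Cd36 and Adgrf5, genes of capillaries, Itgb3 was at 0, 10.2 (7 UMIs), 0 and 0 CPM, and Itga1 at 1096, 694, 962 and 945 CPM. Itga1 in the venous-type cluster was at 85.9, 91.8, 199 and 254 CPM. In each library Itga1 was thus higher in the capillary-type cluster and Itgb3 in the venous-type one, though the latter held both. Whether single cells held both was not tested. The 16 keratinocyte markers, of which 1 was at 0 in cKO PD and none elsewhere, summed to 1467 and 1915 CPM in the endothelium of cKO PD and cHet PD and to 2469 and 2744 CPM in that of cKO control and cHet control, lower where Itgb4 was lower; their part in that difference was not tested.

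**Figure D4:**
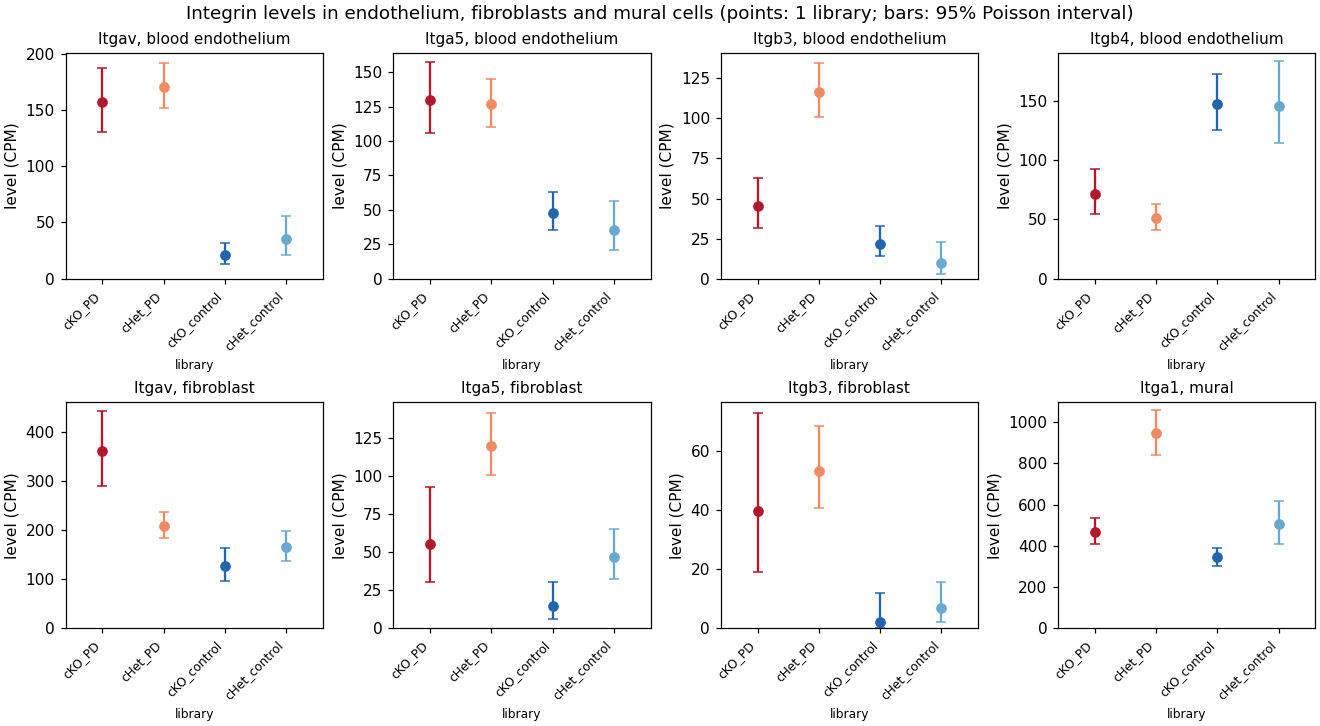
Level (CPM, vertical axes) of Itgav, Itga5, Itgb3 and Itgb4 in blood endothelium, of Itgav, Itga5 and Itgb3 in fibroblasts and of Itga1 in mural cells, by library (horizontal axis), bars showing 95% Poisson intervals. In endothelium Itgav and Itga5 are higher and Itgb4 is lower in both PD libraries than in both controls, and Itgb3 in endothelium and Itga1 in mural cells are highest in cHet PD.

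The matrix genes that these receptors bind also differed. Of 21 genes of basement membrane and interstitial matrix, 16 could be compared in the endothelium of the cHet pair, of which 10 were higher in PD and 1 lower (all genes 10.3% and 5.12%), with a median log2 ratio of 1.88 beside 0.15 over all genes. Among them Lamb1, a laminin chain, was at 526 CPM in cHet PD and 105 CPM in cHet control. Thbs1, a matrix protein bound by alpha v integrins, was at 1038 and 213 CPM, and Col4a1, the collagen of basement membranes, at 3899 and 833 CPM. Ccn2 was the lower one, at 261 CPM in cHet PD and 563 CPM in cHet control. In the cKO pair 11 of 15 were higher and 1 lower (all genes 6.25% and 7.77%), with a median of 1.38 beside 0.01. The lower one was Ccn2 again, at 262 CPM in cKO PD and 733 CPM in cKO control. Thbs1 in the endothelium of cKO PD, at 342 CPM, was 0.330 of its level in cHet PD.

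Of the gated classes taken whole, mural cells had the highest level of Itga1, a collagen receptor chain, in each library. The capillary-type cluster within endothelium, given above, was higher than mural cells in every library but cHet PD. In mural cells Itga1 had 469 CPM (408 to 536) in cKO PD, 946 CPM (842 to 1059) in cHet PD, 343 CPM (301 to 390) in cKO control and 505 CPM (410 to 617) in cHet control. The cHet PD library stood above the rest, but its ratio to cHet control, 1.87, and the cKO PD to cHet PD ratio of 0.496 (0.414 to 0.592) both missed the size rule with 10 CPM added. Endothelium followed with 340 CPM, 377 CPM, 301 CPM and 468 CPM, and keratinocytes were low, at 14.3, 8.65, 30.5 and 16.0 CPM in the basal class.

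Of 3 members comparable in mural cells of the cHet pair, 2 were higher in PD, Itga5 and Itgav, beside 20.2% of all genes. Itga5 had 68.2 CPM (46.3 to 96.8) in cKO PD, 160 CPM (119 to 210) in cHet PD, 17.5 CPM (12 UMIs) in cKO control and 0 UMIs in the 40 cells of cHet control. Against a floor of 3 UMIs in that library, the cHet PD level was at least 10.2-fold higher. Its cKO PD level was 0.427 (0.264 to 0.680) of cHet PD, where 4.09% of all genes were lower in mural cells; this call was lost with classes from clusters (-0.94 on the log2 scale) and without barcodes rich in Malat1 (-0.68), a nuclear RNA. Itgav had 227 CPM (185 to 275), 263 CPM (210 to 326), 129.5 CPM (104 to 159) and 109 CPM (67.7 to 167), with a cHet ratio of 2.40 (1.48 to 4.08) that came to 0.74 with classes from clusters and 0.57 after thinning, on the log2 scale.

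In fibroblasts, the matrix-making cells of the gum, 5 members could be compared in the cHet pair and 2 were higher in PD, Itga5 and Itgb3, beside 11.8% of all genes. Itga5 was at 55.5 CPM (14 UMIs) in cKO PD, 120 CPM (101 to 142) in cHet PD, 14.8 CPM (7 UMIs) in cKO control and 46.7 CPM (32.5 to 65.0) in cHet control. The cHet ratio of 2.57 (1.76 to 3.84) met the rule, and came to 0.99 on the log2 scale without barcodes rich in Malat1. Itgb3 had 39.6 CPM (10 UMIs), 53.3 CPM (60 UMIs), 2.11 CPM (1 UMI) and 6.67 CPM (5 UMIs), higher in both PD libraries than in both controls; the cHet ratio was 7.99 (3.24 to 25.5). Itgav was at 361 CPM (290 to 443), 209 CPM (183 to 237), 127 CPM (96.5 to 163) and 166 CPM (138 to 197). For Itgav it was the cKO pair that met the size rule, with a ratio of 2.85 (2.04 to 4.02), the only member comparable there, where 10.1% of all genes were higher; the cHet ratio was 1.26.

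The fibroblasts of cKO PD were not the same mixture as the others. A cluster led by Col1a1 and Mmp13 held 75.3% of them, against 48.1% in cHet PD and 18.5% in cHet control, and the rest lay mainly in a cluster led by Apod and Dcn, which held 86.5% in cKO control. Markers of bone-forming cells summed to 408 CPM in the fibroblasts of cKO PD, 16.9 CPM in cHet PD, 46.4 CPM in cKO control and 82.8 CPM in cHet control, with 2, 1, 1 and 1 of the 5 markers at 0, and their part in the Itgav level was not tested. Within the Col1a1 and Mmp13 cluster Itgav was at 378 CPM in cKO PD, 240 CPM in cHet PD and 206 CPM in cHet control. Within the Apod and Dcn cluster it was at 139 CPM in cHet PD, 123 CPM in cKO control and 157 CPM in cHet control, while Itga5 was at 116, 16.9 and 54.6 CPM. Of the 21 matrix genes, 17 could be compared in cHet fibroblasts, with 6 higher in PD and 1 lower (all genes 11.8% and 12.7%) and a median log2 ratio of 0.78 beside 0.07. They included Postn, a ligand of alpha v integrins, at 3037 CPM in cHet PD and 641 CPM in cHet control, and Tnc, at 1093 and 235 CPM. In cKO 8 of 16 were higher and 0 lower (all genes 10.1% and 21.2%). Among the higher was Fn1, the ligand of the alpha 5 receptor, at 7863 CPM in cKO PD and 1071 CPM in cKO control.

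In mononuclear phagocytes, cells in which Lyz2 is active, Itgav and Itga5 were higher in PD of the cHet pair. Itgav was at 250 CPM (204 to 302) in cKO PD, 415 CPM (375 to 458) in cHet PD, 192 CPM (152 to 239) in cKO control and 98.7 CPM (68.4 to 138) in cHet control. The cHet PD library was highest and cHet control lowest. In cHet the ratio was 4.20 (2.96 to 6.16) and met the rule, in cKO it was 1.304 (0.965 to 1.77), and the cKO PD to cHet PD ratio was 0.602 (0.481 to 0.748). Itga5 had 122 CPM (91.5 to 161), 134 CPM (112 to 160), 72.7 CPM (49.1 to 104) and 55.2 CPM (33.2 to 86.1) in the same order; the cHet ratio of 2.44 (1.497 to 4.18) met the rule and the cKO ratio of 1.68 did not. These were the 2 of 3 comparable members higher in cHet PD, beside 16.4% of all genes of the class. With classes from clusters the Itga5 difference was 0.87 on the log2 scale.

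Itga1 was the member by which the cKO PD phagocytes stood apart. It had 125 CPM (53 UMIs, 93.5 to 163) in cKO PD, 49.1 CPM (46 UMIs, 35.9 to 65.4) in cHet PD, 21.8 CPM (9 UMIs) in cKO control and 29.0 CPM (10 UMIs) in cHet control. The cKO PD level was 5.72-fold (2.80 to 13.2) that of cKO control, as the 1 of 4 members called there beside 16.7% of all genes, and 2.54-fold (1.68 to 3.86) that of cHet PD, where 5.27% of all genes were higher. The second call was narrowly lost with TMM scaling (0.98 on the log2 scale) and after thinning (0.84).

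The phagocyte gate caught different cells in cKO PD. A cluster led by Ly6c2, Lyz2, Il1b and Clec4e, genes of monocytes, held 65.7% of its phagocytes, against 15.2% in cHet PD, 18.6% in cKO control and 11.4% in cHet control. A cluster led by Ctss, Lyz2, Cxcl2 and H2-Aa held 24.8%, 80.4%, 81.4% and 79.5%. Within the Ctss cluster (26, 148, 48 and 35 cells) Itgav was at 556 CPM (422 to 719) in cKO PD, 446 CPM (401 to 494) in cHet PD, 203 CPM (158 to 257) in cKO control and 111 CPM (74.3 to 159) in cHet control. There both PD libraries were above both controls, and cKO PD was no longer below cHet PD. Within the Ly6c2 cluster Itgav was at 140 CPM in the 69 cells of cKO PD and 152 CPM in the 28 cells of cHet PD. Itga1 within the Ly6c2 cluster was at 177 CPM (130 to 236) in cKO PD and 71.1 CPM (28.6 to 147) in cHet PD, and within the Ctss cluster at 9.59 CPM (1 UMI) in cKO PD and 45.9 CPM (38 UMIs) in cHet PD.

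**Figure D5:**
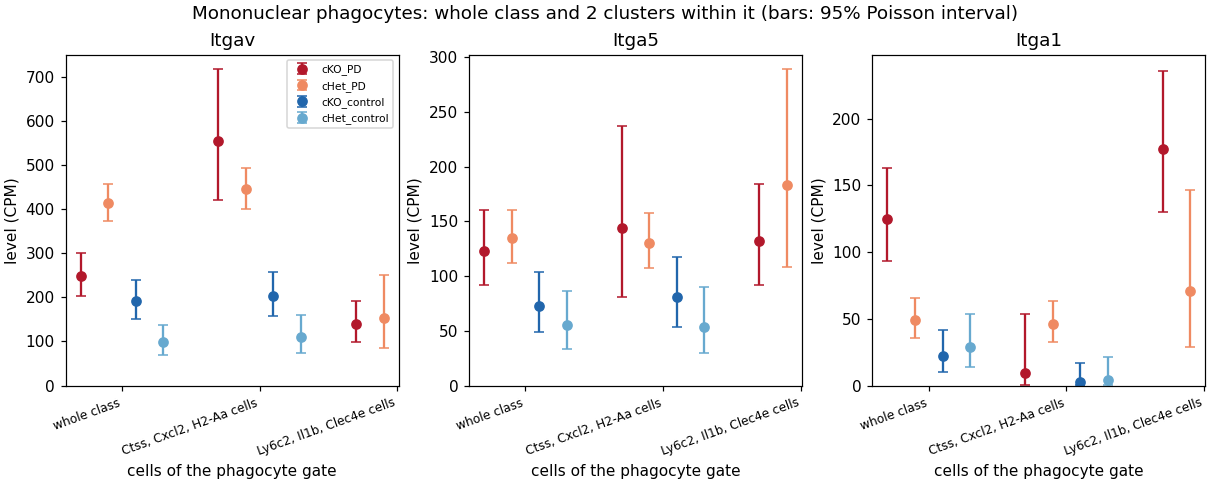
Level (CPM, vertical axes) of Itgav, Itga5 and Itga1 in mononuclear phagocytes by library, for all gated cells and for the cells in the Ctss and Ly6c2 clusters, with 95% Poisson intervals; cluster values rest on 26 to 148 cells in the Ctss cluster and on 69 and 28 PD cells in the Ly6c2 cluster. Itgav in the whole class is lower in cKO PD than in cHet PD, and within the Ctss cluster it is not.

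Some integrin ligands were also higher in phagocytes of the PD libraries. Spp1 (osteopontin, a ligand of alpha v integrins) was at 2819 CPM in cHet PD and 43.5 CPM (15 UMIs) in cHet control, and Thbs1 at 4098 and 412 CPM (142 UMIs). Fn1, the ligand of the alpha 5 receptor, was at 1748 CPM in cKO PD and 82.4 CPM (34 UMIs) in cKO control. Few of the 21 matrix genes had the UMIs to be compared in these small classes, and Spp1 in both pairs and Fn1 in cKO passed the minimum only through the PD library, so no count over the list is drawn on. Of 15 other integrin subunits, 9 could be compared in cHet, with 3 leukocyte chains higher in PD (Itgal, Itgam and Itgb2, the last at 991 and 398 CPM) and Itga4 lower (54.4 and 203 CPM), beside 16.4% of all genes of the class higher and 10.1% lower.

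The neutrophil gate, taken whole, had Itgav at 144 CPM (125 to 164) in cKO PD and 75.5 CPM (53.4 to 104) in cHet PD, a ratio of 1.90 (1.34 to 2.76). Itga5 was at 22.8 CPM (15.8 to 31.6) and 83.4 CPM (60.1 to 113). The clusters behind the gate hardly overlapped between the PD libraries. In cKO PD, 44.1% of the neutrophils lay in one led by Ngp, Chil3 and Camp, genes of immature cells, and 39.6% in one led by Retnlg and Mmp8. Of those of cHet PD, 89.7% lay in one led by Acod1, Srgn and Slfn4. Within these clusters, in this order, Itgav in cKO PD was at 71.3, 55.0 and 158 CPM (9 UMIs in the last). In the Acod1 cluster of cHet PD it was at 83.4 CPM. The 144 CPM of cKO PD thus also draws on gated cells outside these clusters. None of the 31 Itgb8 UMIs of that class lay inside these clusters, and what the outside cells are was not tested. T and NK cells had the highest Itgav level of the named classes in both PD libraries, 520 CPM (47 UMIs, 382 to 692) in cKO PD and 451 CPM (380 to 531) in cHet PD, against 122 CPM (22 UMIs) in cKO control.

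Itgb8, the other TGF-beta releasing partner of alpha v, belonged to none of the gated epithelial layers. Of its 1059 UMIs, 51.7% were in cells that passed no gate, which were 5.97% of kept cells. These were mainly a cluster led by Car6, Mfsd4a and Scgb2b27, secretory genes, with 27.8% of all Itgb8 UMIs, and one led by Cyp2a5, Wfdc18 and Cyp2f2 with 14.2%. In the Car6 cluster Itgb8 was at 69.9 CPM in cKO PD, 108 CPM (8 UMIs) in cHet PD, 59.4 CPM in cKO control and 71.4 CPM in cHet control, and in the Cyp2a5 cluster at 67.3, 183 (9 UMIs), 132 and 149 CPM. Among gated classes its highest levels were in chondrocytes, at 21.4 CPM (6 UMIs) in cKO PD and 58.3 CPM (44.3 to 75.4) in cHet control, and in the T and NK cells of cHet PD, at 57.1 CPM (18 UMIs). The latter UMIs lay in 5.77% of 156 cells, and the T and NK cells of cKO PD (73 cells) and cKO control (48 cells) held 0. Basal keratinocytes held 1.98 CPM (0.854 to 3.90) in cKO PD, 0.534 CPM (0.173 to 1.25) in cHet PD, 6.97 CPM (79 UMIs, 5.52 to 8.69) in cKO control and 1.79 CPM (1.15 to 2.67) in cHet control. The cKO control library stood above the others, at 3.89-fold (2.44 to 6.42) cHet control, beyond counting error, and all these levels lie under the 10 CPM that the size rule adds, so that no pair met it.

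Counted over all classes and members, 57 gene and class pairs could be compared between cHet PD and cHet control, of which 16 were higher in PD and 2 lower, beside 6.91% higher and 7.29% lower over all genes in all classes. A gene counts once per class here, so these pairs are not independent. Between cKO PD and cKO control there were 51 pairs, 5 higher and 3 lower, beside 3.74% and 5.98%. Between cKO PD and cHet PD there were 52 pairs, 1 higher and 7 lower, beside 2.73% and 3.23%; of the 7, 3 were Itgb6 in basal, cycling and intermediate keratinocytes. Between cKO control and cHet control 0 of 49 pairs were higher and 0 lower, beside 0.84% and 0.847%. The largest of these on the scale of the rule were in phagocytes, with ratios of 2.03 (1.29 to 3.27) for Itga6 and 1.94 (1.28 to 2.99) for Itgav. The hemidesmosome chains hardly differed in basal cells, with 1.02 (0.991 to 1.04) for Itga6 and 0.968 (0.921 to 1.02) for Itgb4. No difference of genotype between the PD effects was tested.

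Over the 54 points of class and library, the genes most like a member in log2 level were ranked by Pearson's r among 8685 genes, as a description, since points of 1 library share its depth and free RNA. Itga6 was closest to Itgb4 (r = 0.875) and Lama3 (0.874), a chain of the laminin it binds, followed by Col17a1 (0.790), the hemidesmosome collagen. Itgb4 was closest to Jag2 (0.907), a Notch ligand, then to Itga6 and Lama3 (0.835). Itgb6 was closest to Urah (0.826), Ifi202b (0.822) and Defb1 (0.803), a beta-defensin. Itgb3 was close to Igtp (0.818) and to Il1r1 (0.808), the interleukin-1 receptor. Itga5 was closest to Ifit3 (0.856), an interferon-induced gene, and to Ptpn12 and Gusb (0.847 each). Itgav was closest to Pmepa1 (0.811), a gene induced by TGF-beta, and Itga1 to Ano6 (0.898).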

How the data were processed

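Cells of mouse gingiva, dissociated enzymatically and captured on the BD Rhapsody system (the labels also name 10x Genomics), were deposited by the authors as raw UMI counts per gene and barcode; fastp and STARsolo 2.7.10a with the mm10 build are named in the submitters' processing notes, and the barcode filter behind the lowest totals of 500 UMIs (PD) and 1501 UMIs (control) is not given in the sources used here. The deposited counts were read with Python 3.11.15; barcodes with over 20% mitochondrial UMIs or under 200 genes were left out. Scrublet called 2 doublets, too few for the caller to have worked, so doublets were not removed.

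Each cell was gated on marker UMIs per 10000, and cells passing no gate or more than 1 were left out of the classes. Basal keratinocytes had at least 30 UMIs per 10000 of Krt5, Krt14 and Krt15 and under 60 of Krt1, Krt10 and Krtdap, intermediate cells 60 to 200 and spinous cells 200 or more; 529 of 8328 basal cells lay within 20% of a cut. The neutrophil gate left out S100a8 and S100a9, which occur as free RNA. None of the 10 leading genes of the phagocyte class was a marker of its gate. Counts were summed per class and library, divided by the class total, and intervals computed with scipy 1.17.1. Leiden clusters (scanpy 1.11.5, resolution 2) were made without the 10 genes. The 10 genes were to be described wherever 1 library held 50 UMIs, but not every such class is written out here. Of listed other genes, at most 3 higher and 3 lower per comparison were named by size. Thinned shares of cells use 1000 UMIs per cell. Cells under 1000 UMIs were left out of them, all in the PD libraries, as with 421 of 916 intermediate cells of cHet PD. TMM factors came from edgeR 4.0.16. The size rule was tried on simulated data, and the outcome is not given here. Members and gene lists were chosen with earlier results of these data known, and gate cuts, cluster values and the Malat1 alternative after seeing the data. Some genes that the naming rule covers are not reported here.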

Additional observations from a re-analysis of the deposited data

How the results depend on the processing

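No paired analysis was possible because 1 library stood for each group, so none could be left out either. Of the 34 gene and class pairs that met the size rule, 19 stayed past 2-fold under every setting run, 9 fell below it only when cells were thinned to 1000 UMIs, and no direction turned. Cells under 1000 UMIs, which cannot be thinned to that total, stood only in the PD libraries, so thinning was not an even check of depth. Thinning left fewer pairs with 50 UMIs, with 3 higher and 4 lower for PD in cHet, 0 higher for PD in cKO, and 0 higher and 1 lower for cKO PD against cHet PD. With no UMI minimum there were 7 lower for PD in cHet, 11 higher and 8 lower in cKO, 6 higher for cKO PD against cHet PD, and 3 higher and 2 lower between controls; a minimum of 20 UMIs gave 5 lower in cKO, 3 higher for cKO PD against cHet PD and 1 lower between controls. Adding 1 CPM in place of 10 gave 5 lower in cHet, 8 lower in cKO and 2 higher between controls. A 1.5-fold size gave 9 lower in cHet, 10 higher and 12 lower in cKO, 3 higher and 14 lower for cKO PD against cHet PD, and 3 higher and 1 lower between controls. Without the top 5% of doublet scores 5 were lower in cKO; TMM scaling gave 0 higher for cKO PD against cHet PD and 1 higher between controls; without barcodes over 0.3% Malat1 1 was higher between controls. The shares over all genes under these other settings are not given here, and some counts are given in a single direction only. These counts are therefore not read as results about the members. TMM moved the median of all genes by up to 0.358 on the log2 scale (phagocytes of the cHet pair). For single pairs, 1489 of 1617 alternative values moved by less than the counting interval and 128 by more, 68 of them after thinning and 38 with classes from clusters; the cause was not tested. Depth limits Itgb3 and Itgb8 most: a pair with under 50 UMIs in both libraries could not be compared.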
